A study of Homo sapiens with 47 samples.

Results

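The genes examined here are 7 that encode lysine acetyltransferases and steroid receptor coactivators: EP300, CREBBP, KAT2A, KAT2B, NCOA1, NCOA2 and NCOA3. They were chosen by name, for the role of their products, out of 20162 protein-coding genes in the annotation, and none of them was a target of the guide RNAs (gRNAs). Their ChIP-seq peaks were read within 2 kb of every annotated transcription start and inside the gene bodies, on the hg19 build. Part of the coding sequence of EP300, the p300 core, was itself carried by a transfected plasmid.

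All samples were Ishikawa cells, a human endometrial adenocarcinoma line, kept in hormone-depleted medium and transfected with plasmids for gRNAs and for a catalytically dead Cas9 (dCas9) fusion, followed by drug selection for cells that took up both plasmids. The fusion was either dCas9-VP16(10x), which carries 10 copies of the viral VP16 activation domain, or dCas9-p300(core), which carries the acetyltransferase core of human p300. For H3K27ac, a histone mark of active promoters and enhancers, and for RNA polymerase II (RNAPII) there were 10 libraries per construct, 2 for each of 5 gRNA pools. Pools 1, 2 and 3 each directed dCas9 to an estrogen receptor binding site (ERBS) near MMP17, CISH, FHL2 and HES2, the Adjacent pool to regions beside such sites, and the IL1RN pool to the IL1RN promoter as a control. ChIP with an antibody to the HA tag of the fusions gave 7 libraries. Of these, 5 were dCas9-VP16(10x) libraries, with 2 each for the ERBS pool, which combines Pools 1 to 3, and the Adjacent pool and 1 for IL1RN. The other 2 were dCas9-p300(core) libraries with the ERBS pool. Every group carried a dCas9 plasmid, so there was no untransfected sample, and nothing in the labels says that the 2 replicates of a pool were separate cultures.

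The number of called peaks per library ran from 1805 to 32052 for H3K27ac, from 16041 to 40757 for RNAPII and from 141 to 30740 for HA, and read depths were not given. The peak names of some libraries open with a number, 15977 or 15968, here called identifier A and identifier B, which the labels do not explain. All 10 RNAPII libraries of dCas9-p300(core) had identifier A, whereas the dCas9-VP16(10x) libraries had identifier B in 7 and no identifier in 3, so construct and identifier cannot be told apart for RNAPII. For H3K27ac, identifier A was present in 6 dCas9-p300(core) and 5 dCas9-VP16(10x) libraries, and the libraries without an identifier differed in number of peaks: 1805 to 4346 peaks in 4 dCas9-p300(core) libraries against 24890 to 32052 in 5 dCas9-VP16(10x) libraries. The peak names of the H3K27ac dCas9-VP16(10x) Pool 1 replicate 2 library carry the letter otherwise used for dCas9-p300(core), against its title, and it was kept as titled. The labelled epithelial origin was checked against 7 markers, including PAX8, SOX17, KRT8 and KRT18, and all 7 had an RNAPII promoter peak in all 20 libraries. Of 9 markers of blood, endothelial, fibroblast, liver and muscle cells, 6 had no RNAPII peak in any library.

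Lysine acetyltransferases transfer an acetyl group to histones and other proteins, and acetylation of H3K27 by p300 and its paralogue CBP is a hallmark of active enhancers and promoters. Estrogen receptor bound to hormone recruits the steroid receptor coactivators encoded by NCOA1, NCOA2 and NCOA3, which in turn bind p300 and CBP. KAT2A and KAT2B encode the alternative acetyltransferase subunits of the SAGA and ATAC complexes, which act mainly on other lysines of histone H3.

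EP300 (chr22:41488596-41576081, plus strand) encodes p300. The part of it on the plasmid was located from the annealing parts of the primers with which the core was amplified, shown here because they set the ends of the insert. In the forward primer the lower-case base is the last of exon 16 and the capitals are the start of exon 17, and the reverse primer lies in exon 30 on the minus strand at chr22:41572443-41572463.
Forward primer: aTTTTCAAACCAGAAGAACTAC
Reverse primer: GTCCTGGCTCTGCGTGTGCAG
Between them the insert holds 1851 exon bases, or 617 codons, from exons 16 to 30 of a gene with 31 exons. Those bases make up 7.68% of a genomic span of 24110 bp that starts 59758 bp after the EP300 start, the rest being introns that the plasmid does not carry. The next 3 stretches show the joins that tell the insert from the chromosome: exon 17 (chr22:41550979-41551137), where the insert starts, exon 21 (chr22:41558707-41558803), the shortest whole exon in it at 57 bases, and the end of the insert in exon 30 (chr22:41572423-41572483). Capitals mark the exon in the first pair and the site of the reverse primer in the last.
EP300 exon 17: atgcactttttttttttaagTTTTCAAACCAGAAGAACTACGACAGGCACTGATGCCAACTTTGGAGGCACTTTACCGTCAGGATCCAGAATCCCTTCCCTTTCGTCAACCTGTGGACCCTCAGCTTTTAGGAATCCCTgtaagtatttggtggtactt
EP300 exon 21: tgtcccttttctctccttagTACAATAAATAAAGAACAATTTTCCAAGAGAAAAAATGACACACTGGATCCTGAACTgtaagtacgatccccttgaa
EP300 exon 30, end of the insert: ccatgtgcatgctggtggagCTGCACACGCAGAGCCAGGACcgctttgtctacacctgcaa
In the paralogue CREBBP, the exon at the place of exon 21 (chr16:3799608-3799704, minus strand, exon in capitals) shares 37 of 57 bases with it, and the counterparts of all the insert exons share 1415 of 1850 aligned bases, with no identical run longer than 28 bases.
CREBBP exon 21: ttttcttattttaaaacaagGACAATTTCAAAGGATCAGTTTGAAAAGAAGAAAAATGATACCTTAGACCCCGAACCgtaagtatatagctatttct

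Peaks lay over the insert exons of EP300 in every library of dCas9-p300(core) with identifier A, whatever the antibody. This held for 10 of 10 RNAPII libraries, 6 of 6 H3K27ac libraries and 2 of 2 HA libraries. They were also found in the 6 dCas9-VP16(10x) libraries with identifier A, 5 for H3K27ac and 1 for HA, the Adjacent replicate 2. No H3K27ac library without the identifier had them, neither the 4 of dCas9-p300(core) nor the 5 of dCas9-VP16(10x), although the latter had 24890 to 32052 peaks each.

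By construct, the core exons had an RNAPII peak in 10 of 10 dCas9-p300(core) and 3 of 10 dCas9-VP16(10x) libraries (exact p = 0.0031, Fisher's two-sided test). The 3 dCas9-VP16(10x) peaks were at exon 30 only, with enrichments (fold over the local background, as the peak caller gave it) of 8.12 in Adjacent replicate 2 and 7.79 and 5.97 in the IL1RN libraries. With only peaks of −log10 q of at least 20, the counts were 10 and 0 (exact p = 1.08e-05). For H3K27ac the counts of 6 of 10 and 5 of 10 did not differ (exact p = 1), and leaving out the libraries with few peaks gave 4 of 4 against 4 of 9 (exact p = 0.105). For HA the 2 of 2 and 1 of 5 gave an exact p of 0.143, where the smallest p this design allows is 0.0476.

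**Figure D1:**
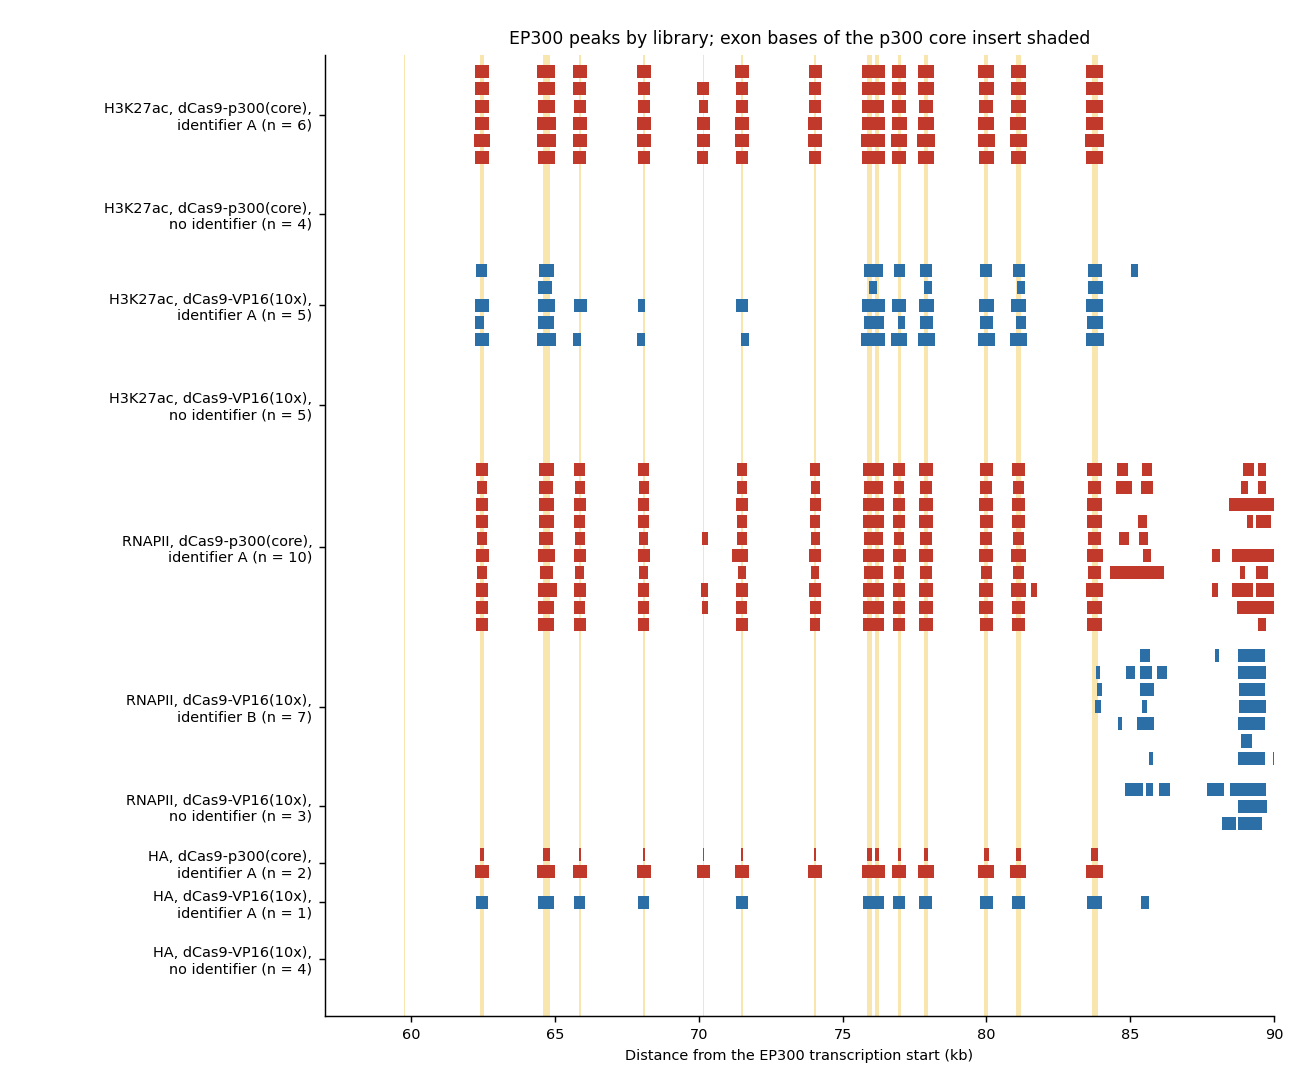
Peaks of each library (rows) along EP300 from 57 to 90 kb after its start (horizontal axis, kb), with dCas9-p300(core) in red and dCas9-VP16(10x) in blue and the exon bases of the p300 core insert shaded. The bars stand over the shaded exons in all libraries with identifier A, and the other dCas9-VP16(10x) libraries have bars only from exon 30 onwards.

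Within the H3K27ac libraries with identifier A, both constructs could be compared, and the core peaks were higher with dCas9-p300(core). The strongest core peak had an enrichment of 67.1 and 93.3 in the Adjacent libraries, 78.3 in IL1RN, 90.1 in Pool 1, 77.0 in Pool 2 and 89.8 in Pool 3 of dCas9-p300(core). With dCas9-VP16(10x) it was 26.3 in Adjacent, 28.1 in IL1RN, 40.2 in both Pool 1 and Pool 3 and 47.0 in Pool 2. The groups did not overlap, and dCas9-p300(core) was 2.31-fold higher (exact permutation test, two-sided p = 0.00433, the smallest it can give, and 0.00649 adjusted over the 6 measures compared).

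The exons were also more fully covered. The 6 dCas9-p300(core) libraries had peaks over 13 to 14 of the core exons and 96.9 to 99.9% of the insert bases, against 6 to 12 exons and 46.3 to 93.1% in the 5 of dCas9-VP16(10x) (for each measure exact permutation p = 0.00433, two-sided, adjusted 0.00649). The introns between them were covered to 19.8 to 24.6% and 3.58 to 17.3%. At the first exon of EP300, which the plasmid does not carry, the enrichment ran from 17.4 to 107 with a median of 58.3 and from 30.1 to 125 with a median of 46.6. These ranges overlapped, with a difference of -0.17 on the log2 scale (exact permutation p = 0.792, two-sided). The strongest core peak divided by the peak of the first exon was 0.734 to 5.17 and 0.224 to 1.34, ranges that overlapped (exact permutation p = 0.0779, two-sided, adjusted 0.0935). With libraries paired by pool and replicate number, it was higher with dCas9-p300(core) in 5 of 5 pairs (exact permutation p = 0.0625, two-sided, the smallest that 5 pairs allow). In the same pairs the strongest core peak, the number of core exons with a peak and the share of insert bases covered were each higher with dCas9-p300(core) in 5 of 5 (exact permutation p = 0.0625, two-sided), and the first exon in 2 of 5 (exact permutation p = 0.438, two-sided).

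With RNAPII and dCas9-p300(core) the strongest core peak ranged from 50.6 to 72.6 with a median of 63.6, above the first exon of EP300 in each library (1.33 to 3.84 times). The 2 HA libraries of dCas9-p300(core) had a strongest core peak of 83.6 and 132, and the core exons made up 14 of 154 and 13 of 141 of their peaks. They had none at the EP300 start. The HA dCas9-VP16(10x) Adjacent replicate 2 library had peaks over 12 core exons, the strongest at 62.7, and 34.1 at the first exon.

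**Figure D2:**
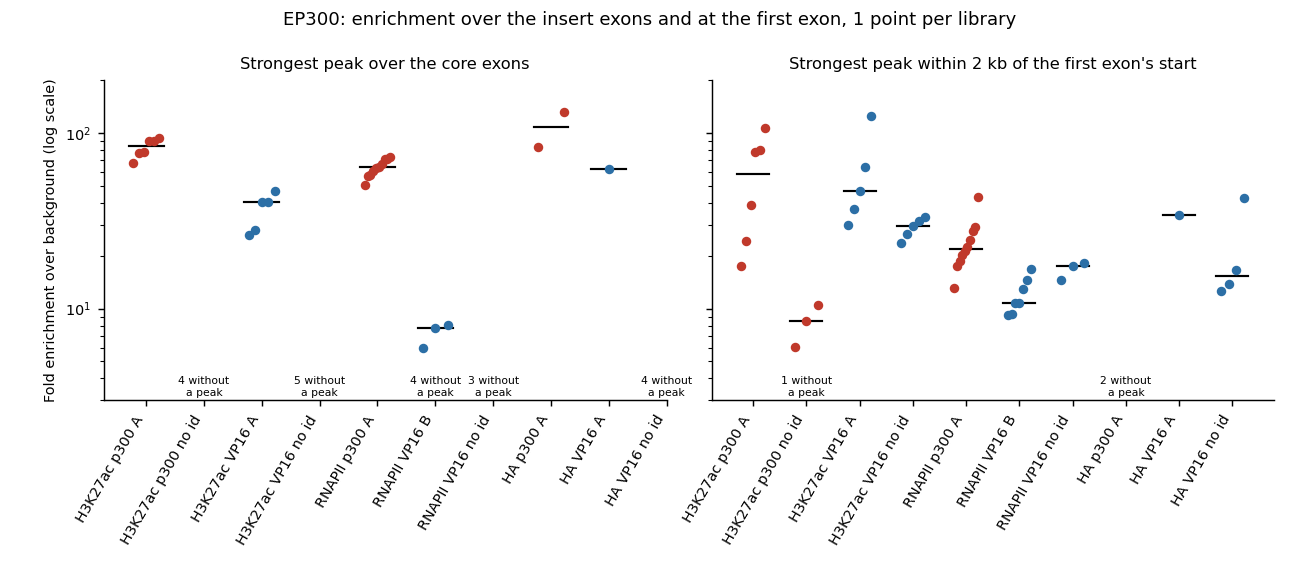
Enrichment (log axis) of the strongest peak over the p300 core exons and of the peak at the first exon of EP300, each point a library and each line a median, by antibody, construct and identifier. For H3K27ac with identifier A the core values of dCas9-p300(core), 67.1 to 93.3, lie above those of dCas9-VP16(10x), 26.3 to 47.0, whereas the first exon values overlap.

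The peaks followed the exons closely. In the HA dCas9-p300(core) replicate 1 library, the peak edges were a median of 1 base before and 2 bases after the exon, with a median peak width of 120 bases, and only 0.229% of the intron bases were covered. In the other dCas9-p300(core) libraries the edges were a median of 111 to 215 bases outside the exon. Across core exons the enrichment followed exon length, with a Spearman rho of 0.93 for RNAPII and 0.94 for H3K27ac in dCas9-p300(core) over 12 exons. It was 0.92 for H3K27ac in dCas9-VP16(10x) over 10. Exons 24 and 25, which share a peak, and exon 16, with 1 insert base, were left out. The rho values are descriptions across exons of the same libraries.

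Exon 21, the short exon printed above, was the lowest: its peak was found in 3 of 10 RNAPII libraries and 5 of 6 H3K27ac libraries of dCas9-p300(core), where its enrichment was 12.3 to 15.8, and in 0 of 5 H3K27ac libraries of dCas9-VP16(10x) with identifier A. Exons 24 and 25, which are separated by an intron of only 121 bases and share a peak, had 67.1 to 93.3 in the same H3K27ac dCas9-p300(core) libraries, and exon 30 had 59.9 to 90.1. The peaks over exon 30 reached 89 to 213 bases past the last base of the insert, and 1 base in HA dCas9-p300(core) replicate 1.

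**Figure D3:**
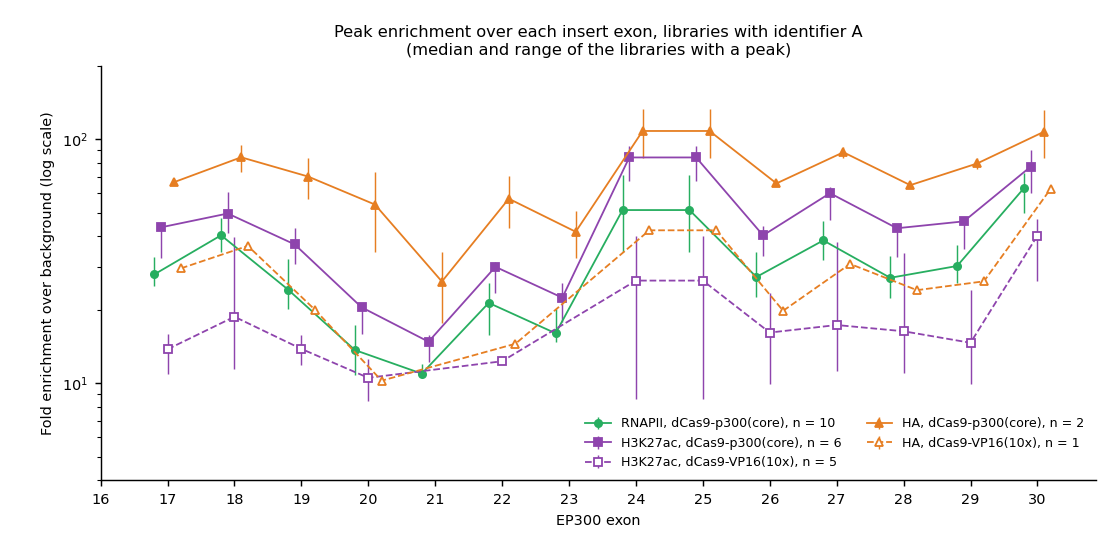
Enrichment (log axis) of the peak over each core exon of EP300 in libraries with identifier A, as the median (marker) and range (bar) over the libraries that have a peak, by antibody and construct. Exons 24, 25 and 30 are high and exon 21 is low in each profile that has it, and the dashed lines pass exons 21 and 23, where no H3K27ac dCas9-VP16(10x) library has a peak.

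The exons that the plasmid lacks were read in the same way. Exons 2 to 15 of EP300 had no peak in any library of any antibody. The last exon, 31, had an RNAPII peak in 6 of 10 dCas9-p300(core) and 7 of 10 dCas9-VP16(10x) libraries, and an H3K27ac and an HA peak in 1 library each, both dCas9-VP16(10x) Adjacent replicate 2. The CREBBP counterparts of the core exons had no peak in any dCas9-VP16(10x) or HA library. In dCas9-p300(core), exons 28 to 30 of CREBBP had RNAPII peaks in 6 of 10 libraries and H3K27ac peaks in 1 of 10. Duplicate reads were removed and only uniquely mapped reads kept in the upstream processing, so repeated plasmid reads count once per position. Whether the peaks come from plasmid DNA, from reads of other libraries or from the EP300 locus was not tested.

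Of the merged RNAPII peak sites over 2 kb from every EP300 start, 6 of 6 were called between the constructs, each in 10 dCas9-p300(core) and 0 dCas9-VP16(10x) libraries (exact Fisher's p = 1.08e-05, adjusted 0.0156 over 44698 sites inside genes). Of all such sites 1.53% were called. All 6 lie over the insert. The same was seen for 11 of 14 sites when distance was taken from the canonical start only. The exon 30 site, at 10 and 3 libraries, missed the threshold (exact Fisher's adjusted p = 0.0867). For H3K27ac, 0 of 13 EP300 sites were called by Fisher's exact test, with 2.31% of 29387 sites called over all genes and unadjusted p under 0.05 for 7566 of them. The H3K27ac exon 23 site was in 6 and 0 libraries (exact p = 0.0108, adjusted 0.083).

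Coding exons over 2 kb from every start of a gene were counted next. EP300 had RNAPII peaks there in 10 dCas9-p300(core) and 7 dCas9-VP16(10x) libraries, the latter all at exon 31 (exact Fisher's p = 0.211, adjusted 0.552). CREBBP had them in 6 and 0 (exact p = 0.0108, adjusted 0.101), the other 5 genes had none, and 2.92% of 3217 genes were called. For H3K27ac, EP300 had coding exon peaks in 6 and 5 libraries and CREBBP in 1 and 0, with 0.403% of 1986 genes called. None of the 7 genes passed in either test by Fisher's exact test, and CREBBP for RNAPII was the only member with an unadjusted p under 0.05.

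Promoters were then compared on the enrichment of the strongest peak, scaled to the promoters with a peak in all 20 libraries of the antibody and given on the log2 scale. A scaled value of 0 is the median of these promoters in the library. Any start of a gene within 2 kb was used, and, as an alternative chosen after seeing the data, the canonical start alone. This choice matters for EP300, which has 4 other annotated starts within 2 kb of the core span.

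With any start, EP300 had the highest signed RNAPII difference, dCas9-p300(core) minus dCas9-VP16(10x), of 11843 promoters. The enrichment ranged from 49.6 to 72.6 with a median of 63.0 in dCas9-p300(core) and from 9.32 to 18.2 with a median of 13.7 in dCas9-VP16(10x). The dCas9-p300(core) range and median are those of the peak over exon 30 of the insert, which lies within 2 kb of another annotated start. The groups did not overlap, and the scaled difference was 1.47 ± 0.17 (SE, n = 10 and 10), with a 95% confidence interval of 1.11 to 1.83 and an adjusted p of 0.000115 by limma. At the canonical start, 59758 bp before the insert, the levels were 13.2 to 43.3 with a median of 21.8 and 9.23 to 18.2 with a median of 13.7. There the scaled difference was 0.06 ± 0.15 (95% confidence interval -0.26 to 0.39, adjusted p = 0.792 by limma). With any start it was the only call among the 6 members that could be tested, against 24.4% of all promoters, and with canonical starts no member was called by limma (none at unadjusted p under 0.05), against 24.7%. Of the 2893 promoters called with any start, 1270 were higher in dCas9-p300(core) and 1623 in dCas9-VP16(10x), a split that became 9344 and 51 without scaling, where the median of all promoters stood at 0.75 in place of 0.01.

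The EP300 promoter had the highest mean H3K27ac of the 7 genes, although NCOA2 lay within the spread. Its canonical peak was present in 9 of 10 dCas9-p300(core) libraries, at 6.05 to 107 with a median of 24.2, and in 10 of 10 dCas9-VP16(10x) libraries, at 23.8 to 125 with a median of 32.4. These overlap, and the scaled difference of 0.33 ± 0.26 did not pass (adjusted p = 0.59 by limma). With any start it was 0.86 ± 0.44 (95% confidence interval -0.06 to 1.78, adjusted p = 0.468). Over the 19 libraries with a peak, the median EP300 promoter stood at percentile 92.9 of the promoters with a peak in its library. The 250 bases before the canonical start (chr22:41488346-41488595, plus strand) are shown because this promoter holds neither a GC box nor any other motif searched, and so has no capitals.
EP300 promoter: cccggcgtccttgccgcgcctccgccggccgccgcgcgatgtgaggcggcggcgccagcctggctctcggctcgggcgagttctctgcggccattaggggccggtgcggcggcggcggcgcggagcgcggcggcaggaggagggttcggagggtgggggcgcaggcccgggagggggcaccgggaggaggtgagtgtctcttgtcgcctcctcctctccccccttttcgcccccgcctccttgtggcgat

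Motifs were searched on both strands from 250 bases before to 50 after the canonical start in the hg19 sequence of 19856 promoters, a window in which matches of different motifs could overlap. The estrogen response element, AGGTCA and TGACC with any 3 bases between, occurred in 0.0252% of all promoters, the cyclic AMP response element TGACGTCA in 2.68%, the ETS site CCGGAAGT in 6.16% and the GC box GGGCGG in 61.4%. None of the 7 genes had the estrogen response element, the cyclic AMP response element or the ETS site, which says only that these letters are not in the window. NCOA1 had 10 GC boxes, KAT2B 4, CREBBP 3 and NCOA2 1, and EP300, KAT2A and NCOA3 had 0. The GC content was 85.7% in NCOA1, 80.3% in KAT2B and 75.3% in EP300, against a median of 63.7% over all promoters, and 62% in KAT2A was the lowest of the 7.

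CREBBP (chr16:3775055-3930714, minus strand) encodes CBP, the closest relative of p300. It had the highest mean RNAPII of the 7 promoters, with KAT2A within the spread and with a median percentile of 91.6 among the promoters of a library. Enrichment was 21.95 to 63.6 with a median of 40.5 in 9 of 10 dCas9-p300(core) libraries and 14.1 to 30.4 with a median of 23.8 in 10 of 10 dCas9-VP16(10x) libraries. On the scaled log2 values the difference was -0.08 ± 0.15 (95% confidence interval -0.38 to 0.22, adjusted p = 0.717 by limma). Its promoter (chr16:3930715-3930964, minus strand) is shown with its GC boxes in capitals, next to that of its paralogue above.
CREBBP promoter: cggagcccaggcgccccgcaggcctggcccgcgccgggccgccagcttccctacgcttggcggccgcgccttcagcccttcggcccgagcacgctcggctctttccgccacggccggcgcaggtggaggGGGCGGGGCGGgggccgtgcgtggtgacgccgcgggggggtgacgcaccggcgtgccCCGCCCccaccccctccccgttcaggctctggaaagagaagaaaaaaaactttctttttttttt
The H3K27ac peak of CREBBP was in 5 dCas9-p300(core) and 9 dCas9-VP16(10x) libraries, at 7.69 to 65.4 with a median of 39.6 and at 10.9 to 97.5 with a median of 15.4. Within identifier A the medians were 43.5 in 4 of 6 dCas9-p300(core) and 44.7 in 4 of 5 dCas9-VP16(10x) libraries. Without an identifier the peak was in 1 of 4, at 7.69, and in 5 of 5, with a median of 14.3. At the other end of CREBBP, 4 of its RNAPII sites were in 6 or 7 dCas9-p300(core) and 0 dCas9-VP16(10x) libraries, but none passed (lowest adjusted p = 0.0867 by Fisher's exact test).

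KAT2A (chr17:40265129-40273385, minus strand) encodes a SAGA and ATAC acetyltransferase and is the shortest of the 7 genes. Its RNAPII peak was present in all 20 libraries, at 9.88 to 50.3 with a median of 37.5 in dCas9-p300(core) and 11.4 to 23.1 with a median of 18.4 in dCas9-VP16(10x), a scaled log2 difference of 0.05 ± 0.16 (95% confidence interval -0.28 to 0.38, adjusted p = 0.836 by limma). Within dCas9-VP16(10x) its scaled level was 0.44 to 0.68 in the 7 libraries with identifier B and -0.45 to -0.29 in the 3 with none. CREBBP behaved likewise, at 0.75 to 1.07 and -0.09 to 0.40, and NCOA3 the other way, at -0.58 to -0.18 and -0.13 to 0.29. In none of the 3 genes did the sets overlap. The 3 libraries without an identifier are replicate 2 of Pools 1, 2 and 3, whose replicate 1 libraries have identifier B. Identifier and replicate therefore cannot be told apart in these pools. The sets overlapped for EP300, NCOA1 and NCOA2, and KAT2B had a peak in only 1 library without an identifier. How many of all promoters split in this way was not counted, so the split is not shown to be particular to these genes. Its part in the construct comparison was not tested. The KAT2A H3K27ac peak was the weakest of the 7, found in 3 dCas9-p300(core) libraries at 11.8 to 20.99 and in 6 dCas9-VP16(10x) libraries at 4.71 to 38.7.

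KAT2B (chr3:20081938-20195896, plus strand) encodes PCAF, the other acetyltransferase of these complexes. It was the least occupied by RNAPII, with peaks in 7 dCas9-p300(core) libraries at 10.1 to 23.8 and 6 dCas9-VP16(10x) libraries at 5.88 to 12, too few for the fit. H3K27ac peaks were found in 3 dCas9-p300(core) libraries at 27.6 to 41.9 and 8 dCas9-VP16(10x) libraries at 9.47 to 55.0 (exact Fisher's p = 0.0698, adjusted 0.163). At 59.8, its median percentile for H3K27ac was above the 35.7 for RNAPII.

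**Figure D4:**
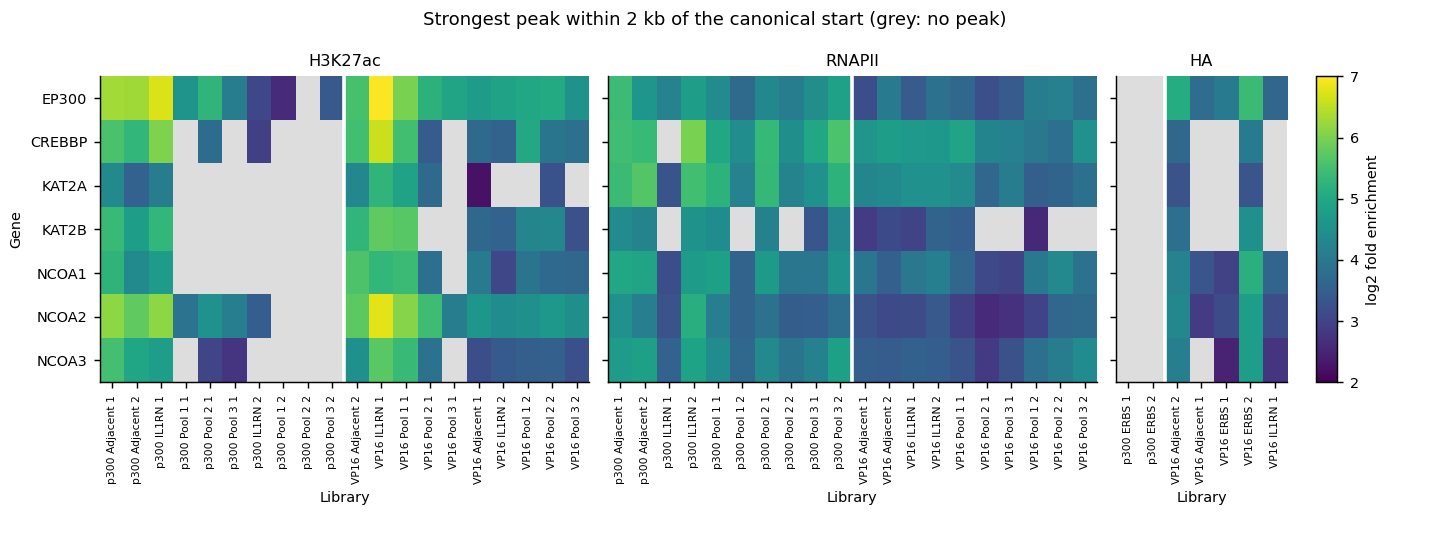
Heat map of the log2 enrichment of the strongest peak within 2 kb of the canonical start of each gene (rows) in each library (columns, by antibody, construct and pool), with grey for no peak. Grey cells are most frequent in the H3K27ac libraries of dCas9-p300(core) without an identifier and in the HA libraries of dCas9-p300(core), and are also found in H3K27ac libraries with identifier A, whereas RNAPII is nearly complete for all genes but KAT2B.

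The 3 steroid receptor coactivator genes all had an RNAPII promoter peak in all 20 libraries. NCOA1 (chr2:24714123-24993571, plus strand) had 9.14 to 32.0 with a median of 24.96 in dCas9-p300(core) and 8.10 to 20.4 with a median of 15.0 in dCas9-VP16(10x). For NCOA2 (chr8:71022017-71316043, minus strand) the values were 9.69 to 35.6 with a median of 14.4 and 6.13 to 13.2 with a median of 8.77. NCOA3 (chr20:46130631-46285621, plus strand), which is often amplified in breast cancer, had 11.9 to 29.9 with a median of 21.2 and 7.19 to 21.4 with a median of 11.4. The ranges overlapped for each gene. After scaling, the log2 differences were -0.13 ± 0.11 for NCOA1 (95% confidence interval -0.36 to 0.09), 0.06 ± 0.12 for NCOA2 (-0.19 to 0.32) and 0.05 ± 0.10 for NCOA3 (-0.17 to 0.27), and none passed (adjusted p of 0.379, 0.732 and 0.761 by limma).

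H3K27ac set NCOA2 apart from the other coactivator genes. Its peak was in 7 dCas9-p300(core) libraries at 11.3 to 71.1 with a median of 23.2 and in 10 dCas9-VP16(10x) libraries at 17.4 to 111 with a median of 25.2, and its median percentile was 89.1 for H3K27ac against 25.9 for RNAPII. Its scaled log2 difference of 0.40 ± 0.22 did not pass (95% confidence interval -0.06 to 0.86, adjusted p = 0.472 by limma), and it was 0.18 with the replicate block (adjusted p = 0.729) and 0.15 with the identifier as a term (adjusted p = 0.873). NCOA1 had H3K27ac peaks in 3 and 9 libraries, at 20.8 to 38.1 and 8.41 to 48.3, and NCOA3 in 5 and 9, at 6.77 to 45.7 and 9.15 to 53.0.

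No H3K27ac promoter difference of enrichment was called by limma for any gene, whether with any start (0% of 3104 promoters, 335 at unadjusted p under 0.05), with canonical starts (0% of 2667, 272 at unadjusted p under 0.05) or with canonical starts within identifier A (0% of 5609, 216 at unadjusted p under 0.05). Among members, only EP300 and NCOA2 had enough peaks to be tested in the first pair of fits. Neither had an unadjusted p under 0.05 with any start. Within identifier A the canonical log2 difference was 0.48 ± 0.21 for EP300 (adjusted p = 0.799), 0.09 for NCOA2 (adjusted p = 0.911), 0.15 for CREBBP (adjusted p = 0.902) and -0.0028 for NCOA3 (adjusted p = 0.997).

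H3K27ac promoter peaks of every member were in as many or more dCas9-VP16(10x) as dCas9-p300(core) libraries, most unequally for NCOA1, at 9 and 3 (exact Fisher's p = 0.0198, adjusted 0.1004). None of the 7 was called by Fisher's exact test, NCOA1 alone had an unadjusted p under 0.05, and 0.0283% of 14159 genes were called. In the 4 dCas9-p300(core) libraries without an identifier, which had at most 4346 peaks, EP300 had a peak in 3, CREBBP and NCOA2 in 1 each and the other 4 genes in none. Within identifier A NCOA1 was in 3 of 6 and 4 of 5 libraries and NCOA3 in 5 of 6 and 4 of 5, and 0% of 14014 genes were called by Fisher's exact test (43 at unadjusted p under 0.05). For RNAPII, presence was 10 and 10 for all members but CREBBP, at 9 and 10, and KAT2B, at 7 and 6. None of the 7 was called by Fisher's exact test or had an unadjusted p under 0.05, and 0.419% of 14782 genes were called.

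Ordered by mean scaled log2 RNAPII at the canonical start, the genes ran CREBBP (0.60 ± 0.31), KAT2A (0.31 ± 0.36), EP300 (-0.06 ± 0.33), NCOA1 (-0.11 ± 0.25), NCOA3 (-0.20 ± 0.21), NCOA2 (-0.61 ± 0.28) and KAT2B (-0.69 ± 0.32, SD over 19 libraries for CREBBP, 13 for KAT2B and 20 for the rest). NCOA3 exceeded NCOA2 in 19 of 20 libraries, by a mean of 0.41 with an SD of 0.29, and the other neighbours differed by less than the SD of their difference. By H3K27ac the order was EP300 (0.26 ± 0.55, 19 libraries), NCOA2 (0.09 ± 0.42, 17), CREBBP (-0.55 ± 0.54, 14), KAT2B (-0.82 ± 0.43, 11), NCOA1 (-1.01 ± 0.50, 12), NCOA3 (-1.08 ± 0.46, 14) and KAT2A (-1.595 ± 0.55, 9). Here NCOA2 exceeded CREBBP in 13 of 14 libraries and NCOA3 exceeded KAT2A in 9 of 9. KAT2A thus stood next to the top by RNAPII and last by H3K27ac, and NCOA2 next to the top by H3K27ac and next to last by RNAPII. These are enrichments in peaks, and libraries in which a gene had no peak do not enter its mean.

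**Figure D5:**
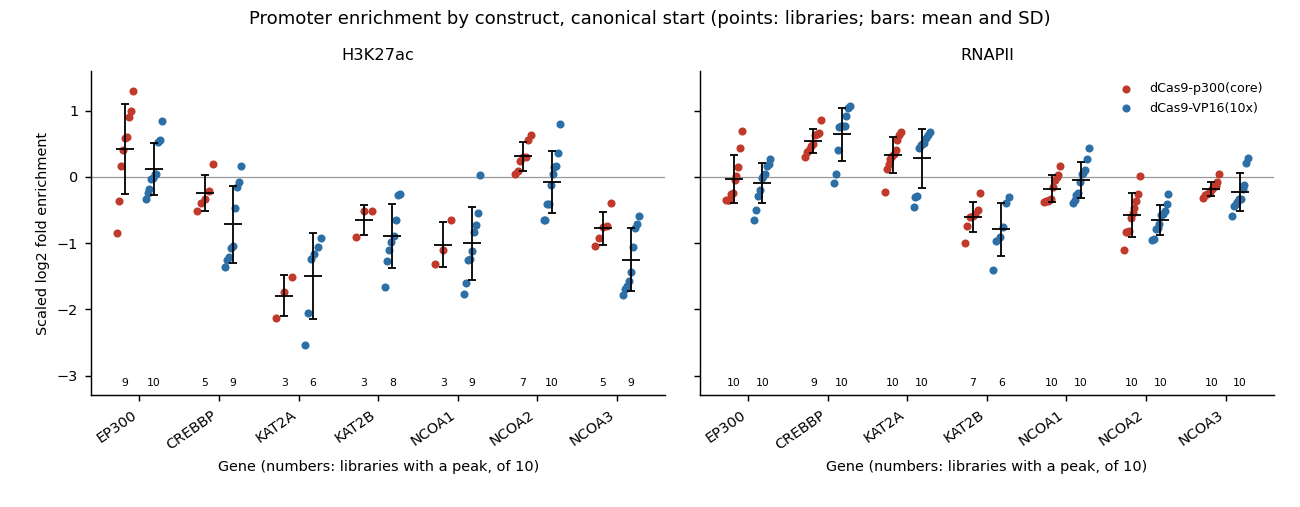
Scaled log2 enrichment at the canonical start of each gene by antibody and construct, each point a library, with bars for mean and SD and the number of libraries with a peak out of 10 printed for each group. The constructs overlap for all 7 genes, including EP300, whose mean RNAPII is -0.06 over all libraries.

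Enrichment did not differ detectably between gRNA pools for the members tested. These were 2 for H3K27ac, EP300 and NCOA2, and 6 for RNAPII, all but KAT2B. By the F-test of limma across the 5 pools, 0% of 3104 H3K27ac promoters were called (93 at unadjusted p under 0.05) and 0% of 11843 RNAPII promoters (202 at unadjusted p under 0.05). The difference between constructs did not vary with pool for any tested member after adjustment, NCOA2 for RNAPII having the lowest unadjusted p (0.0248 by limma, adjusted 0.999). Peak presence by pool was not tested. The H3K27ac promoter peak of KAT2A was in 4 of 4 Adjacent and 0 of 4 Pool 3 libraries. It was in 4 and 1 for CREBBP, KAT2B and NCOA1, 4 and 2 for NCOA3, 4 and 3 for NCOA2 and 4 and 4 for EP300. The Adjacent libraries had 16457 to 27208 peaks in all and those of Pool 3 had 1805 to 24890.

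HA peaks stood at promoters of these untargeted genes in the dCas9-VP16(10x) libraries. There was no library without a tagged fusion, and whether these peaks mark the fusion or background was not tested. EP300 had 16.7 and 42.5 in the ERBS libraries, 13.8 and 34.1 in Adjacent and 12.6 in IL1RN, at percentiles of 89.7 to 99.1 within each library. NCOA1 and NCOA2 also had a peak in 5 of 5, at 7.92 to 36.0 and 7.29 to 27.9, and NCOA3 in 4 of 5, at 5.62 to 27.4. CREBBP, KAT2A and KAT2B had peaks only in Adjacent replicate 2 and ERBS replicate 2, the 2 HA libraries with the most peaks, at 12.9 and 16.7, 9.68 and 10.0, and 14.1 and 22.9. The higher values of EP300, NCOA1, NCOA2 and NCOA3 were in those libraries too. The 2 dCas9-p300(core) libraries, with 154 and 141 peaks in all, had none at any member's canonical promoter.

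Related genes were taken from lists and read against the 24.4% of promoters called for RNAPII. Of 13 other acetyltransferases and coactivators, 1 passed, NCOA4, a receptor coactivator also known for ferritin turnover, which was higher in dCas9-p300(core) by 0.39 ± 0.09 (adjusted p = 0.00602 by limma), and the list's median log2 difference was 0.06 against 0.01 over all promoters tested. In the list the circadian acetyltransferase gene CLOCK had the highest scaled RNAPII, 0.84, and HAT1 the lowest, -1.19. Of 20 other SAGA and ATAC subunits, 4 were higher in dCas9-p300(core), namely TADA2B (0.58), TRRAP (0.39), ATXN7 (0.36) and TAF5L (0.44), and SGF29 was lower (-0.44), with a list median of 0.00064. Without scaling all 5 were higher in dCas9-p300(core), SGF29 by 0.29.

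Of 9 receptor genes and partners of p300 or CBP, 4 passed by limma. NRIP1, a corepressor of nuclear receptors (0.58, adjusted p = 0.0193), and CITED2, which binds p300 (0.25, adjusted p = 0.0433), were higher in dCas9-p300(core). CARM1, an arginine methyltransferase that works with the coactivators (-0.45, adjusted p = 0.00918), and MED1, the Mediator subunit that contacts nuclear receptors (-1.33, adjusted p = 0.00501), were lower, although without scaling CARM1 was higher by 0.27, and the list median was -0.18. Of 10 deacetylase and corepressor genes tested, none passed by limma (1 at unadjusted p under 0.05, median -0.0016). For H3K27ac, 0 of 8, 7, 5 and 7 tested genes of these lists passed by limma, with 0, 1, 0 and 1 at unadjusted p under 0.05. Among the epithelial markers, CLDN4 (-1.53) and PAX8 (-0.42) were lower in RNAPII with dCas9-p300(core), PAX8 being higher by 0.31 without scaling, and the other 5 did not pass. COL1A1, the only marker of other cells that could be tested, was lower by the same fit (-0.48, adjusted p = 0.0467 by limma), higher by 0.44 without scaling, with a peak in 7 libraries of each construct. As all these RNAPII differences compare identifier A with other identifiers, construct and identifier cannot be told apart in them.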

How the data were processed

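ChIP-seq of H3K27ac, RNAPII and HA was deposited as 47 peak lists, 1 per library. Per the paper's methods, the authors aligned single-end reads to hg19 with Bowtie, kept uniquely mapped reads and removed duplicates with SAMtools. The submitters' processing notes name Bowtie 1.1.2 and MACS2 2.1.0.20140616. The deposited values used are fold enrichment over local background, a linear ratio, and −log10 q-values; reads were not analysed here. Peak files have no rows for regions below the caller's threshold, so absence is a missing value and not 0, and read depth is unknown.

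Peaks were assigned to GENCODE 44 genes lifted to hg19 by the annotation's makers when they fell within 2 kb of a start. Log2 enrichments were centred on the library median of the promoters with a peak in all 20 libraries. With any start these were 485 for H3K27ac and 8853 for RNAPII, and with canonical starts 375 and 8242. The values were tested with limma 3.58.1 (R 4.3.3), construct plus pool, for promoters with at least 14 libraries and 6 per construct. Benjamini-Hochberg adjustment at 0.05 was over all promoters. Presence was tested by Fisher's exact test, two-sided, over all genes or over sites made by merging overlapping peaks with bedtools 2.31.1. p-values measure the spread between these libraries, which may be technical. On simulated data limma recovered 93% of H3K27ac changes of log2 1 and 20% of 0.5 over 3104 promoters, and 100% and 49% over 11843 RNAPII promoters. The simulation gave every promoter the same spread, the median SD, and no differences between identifiers. Its shares therefore do not hold for promoters with a wider spread.

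Libraries of the 2 constructs were paired by the replicate numbers in their titles. For H3K27ac their deviations within pools correlated at 0.16 in Adjacent up to 0.91 in IL1RN. For RNAPII the correlations were -0.11 to 0.25. In the H3K27ac pools other than Adjacent, replicate 1 had identifier A and replicate 2 had none in both constructs. Pairing and identifier cannot be told apart there. Genes named are the members, all lists' genes past the threshold, and the highest and lowest of a list. The members, lists and tests were chosen with earlier results of these data known. Canonical starts and the comparisons within identifiers were added after seeing the data. Alternatives were canonical starts, windows of 1 kb and 5 kb, sites merged within 500 bp, −log10 q of at least 20, no scaling, the replicate block and leaving out each library.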

Additional observations from a re-analysis of the deposited data

How the results depend on the processing

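Without scaling, 58 H3K27ac and 9395 RNAPII promoters were called, and among the members only the signs of EP300 (-0.04) and NCOA2 (-0.35) for H3K27ac and of CREBBP (0.78) and NCOA1 (0.59) for RNAPII turned. CREBBP, KAT2A (0.78), NCOA1, NCOA2 (0.79) and NCOA3 (0.77) then passed for RNAPII by limma, as the common shift of 0.75 was not removed. With canonical starts the EP300 RNAPII call was lost (0.06). NCOA2 for H3K27ac turned to -0.0781 with missing peaks set to the lowest value and to -0.0006 with canonical starts and no libraries of few peaks. With only complete genes, 3 promoters were called by pool for H3K27ac.

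Counts of H3K27ac calls depended on which libraries were used. For promoter presence, 4 genes became 0 without libraries of few peaks, within identifier A, with a 1 kb window or with −log10 q of at least 20, 35 with canonical starts and 6513 of 12501 in libraries without an identifier, where NCOA1, NCOA3 and KAT2B passed (adjusted p = 0.0152 by Fisher's exact test). For coding exons, 8 became 0 without libraries of few peaks or within identifier A, 238 without identifier, 4 with the stricter q and 0 when most of the peak had to lie in exons. For sites, 679 became 0 without libraries of few peaks and within identifier A, 9483 without identifier and 1507 with the stricter q. For RNAPII, 94 coding exon calls became 15 when most of the peak had to lie in exons and 145 with canonical starts, and 683 sites became 167 with the stricter q. Requiring most of a peak inside the core exons left a difference in presence of 10 percentage points for RNAPII (exact p = 1) and turned that for H3K27ac to -10. It also turned EP300 coding exon presence to -10 for H3K27ac and -30 for RNAPII. KAT2A H3K27ac presence turned to 8.33 percentage points without libraries of few peaks and NCOA3 to 3.33 within identifier A. Beyond what is said here, the cause of these moves was not tested.

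Leaving out each library in turn gave 0 to 0 H3K27ac and 2135 to 3817 RNAPII enrichment calls, 0 to 3 and 0 to 0 by pool, 4 to 5601 and 62 to 384 for presence, 8 to 146 and 94 to 376 for coding exons and 679 to 8873 and 686 to 3359 for sites. The highest H3K27ac counts of presence, coding exons and sites came without dCas9-VP16(10x) Pool 3 replicate 1, that by pool without dCas9-p300(core) Pool 1 replicate 1, and the highest RNAPII counts without dCas9-p300(core) IL1RN replicate 1. The core exon difference stayed at 4.44 to 16.7 percentage points for H3K27ac, 66.7 to 77.8 for RNAPII and 75 to 100 for HA. EP300 for RNAPII was 1.32 to 1.56 and 6 to 6 of its sites were called. CREBBP ranged from -0.18 to 0.0009 and KAT2A from -0.0397 to 0.126. NCOA1 H3K27ac presence passed without dCas9-p300(core) Adjacent replicate 1, Adjacent replicate 2 or IL1RN replicate 1 or dCas9-VP16(10x) Pool 3 replicate 1 (adjusted p from 0.0186 to 0.033 by Fisher's exact test), and KAT2B without the last (adjusted p = 0.04997). In that last run 5601 genes were called in all. CREBBP RNAPII coding exon peaks by construct passed without dCas9-p300(core) IL1RN replicate 1, Pool 1 replicate 2, Pool 2 replicate 2 or Pool 3 replicate 1 (adjusted p from 0.0298 to 0.0366 by Fisher's exact test). In the first of these runs 376 genes were called in all. Counts over all genes are not given here for the other runs, so the member calls in them cannot be set against a general rate.

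With the replicate block, RNAPII calls numbered 2956 in place of 2893 and EP300 stayed at 1.47 (adjusted p = 0.000173 by limma). Whether the RNAPII replicate numbers pair the libraries is not established (correlations -0.11 to 0.25 within pools). For H3K27ac the block changed no member call. An identifier term and the removal of libraries of few peaks were not run for RNAPII, where the identifier is confounded with construct and no library had so few.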
